A study of Homo sapiens with 3 samples.

Results

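Cluster 1 held 2782 of the 20844 cells in the deposited clustering, or 13.3% (95% exact Clopper-Pearson interval 12.9 to 13.8%, counting error only), and was the second largest of the 14 clusters. Its members were all cells with that number in the deposited cell table, summed over the libraries, and its profile was the deposited average of that cluster. The working name, ANKRD1 and keratin high cells, came from 5 marker genes: ANKRD1, KRT18, KRT8, ANXA1 and SLC2A3. Of these, ANKRD1 and KRT8 had their highest average of all clusters in cluster 1. ANXA1 was higher in cluster 12, KRT18 in clusters 13 and 12, and SLC2A3 in clusters 12 and 10, so another cluster was higher for 3 of the 5 markers.

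The cells came from 3 human embryonal carcinoma (EC) lines, NCCIT, GCT27 and 2102EP, with 1 droplet-based 3′ library per line. EC is the pluripotent, stem cell-like form of germ cell tumour, and yolk-sac tumour (YST) is the form that resembles extra-embryonic endoderm. All 3 lines carried the lenti-MPHv2 activator construct selected with hygromycin, received SOX17-lenti-SAMv2 viruses that switch on the endogenous SOX17 gene, and were given Activin-A at 100 ng/ml, CHIRON at 3 µM, FGF2 at 25 ng/ml and heparin at 1 µg/ml, renewed every 48 h until day 8. No untreated library and no cells with MPHv2 alone were among the samples, every cluster therefore shared the same treatment, and 3 replicates of a line were pooled before sequencing. For 1 sample the title named GCT27 where another label named the line GCT26, and the title was used.

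The averages are mean unique molecular identifiers (UMIs, each marking a captured transcript) per 10000 of a cell, and they pool the 3 libraries. No replicate spread can be computed from them. The clusters were also formed from these same values, so the differences below are descriptions without a test, and none can be called particular to the cluster beyond its rank. An average rested on 42 cells in cluster 13 and on up to 2808 in cluster 0, and UMI totals were not analysed here. The largest library code made up 37.3% of cluster 1, so the cluster was not made of a single library. Mitochondrial transcripts took 2.77% of UMIs in cluster 1 against 2.47 to 6.10% in the others.

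Keratins are the intermediate filaments of epithelial cells, and KRT8 and KRT18 pair with each other to form the filament of simple epithelia, early embryonic epithelia and extra-embryonic endoderm. ANKRD1 encodes a nuclear and sarcomeric ankyrin repeat protein and is a classical target of YAP and TAZ, the Hippo pathway effectors, which bind DNA through TEAD factors and are active in spread cells with strong actin fibres. The study counts ANKRD1 among its YST genes.

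Because ANKRD1 carried the largest difference, the 250 bases before its start site are shown, with those of CCN2, a reference YAP target, and of PRR9, the gene whose levels followed ANKRD1 most closely. The sequences are from RefSeq (GRCh38.p14), read 5′ to 3′ on the gene's strand, at chr10:90921088-90921337 (minus), chr6:131951373-131951622 (minus) and chr1:153217334-153217583 (plus). Capitals mark the TEAD core GGAATG, or its reverse complement CATTCC, and the AP-1 site, searched as TGANTCA with any base at N. The AP-1 match reads TGATTCA in ANKRD1 and TGACTCA in PRR9.
ANKRD1: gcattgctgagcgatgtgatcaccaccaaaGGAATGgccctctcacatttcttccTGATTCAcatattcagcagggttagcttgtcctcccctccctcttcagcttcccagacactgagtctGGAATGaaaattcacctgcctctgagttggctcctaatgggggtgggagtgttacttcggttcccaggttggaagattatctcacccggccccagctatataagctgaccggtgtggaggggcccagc
CCN2: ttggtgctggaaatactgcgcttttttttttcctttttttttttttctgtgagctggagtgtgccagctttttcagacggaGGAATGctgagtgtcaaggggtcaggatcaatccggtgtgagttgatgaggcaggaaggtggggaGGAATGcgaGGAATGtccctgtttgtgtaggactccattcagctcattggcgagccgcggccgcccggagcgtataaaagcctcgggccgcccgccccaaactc
PRR9: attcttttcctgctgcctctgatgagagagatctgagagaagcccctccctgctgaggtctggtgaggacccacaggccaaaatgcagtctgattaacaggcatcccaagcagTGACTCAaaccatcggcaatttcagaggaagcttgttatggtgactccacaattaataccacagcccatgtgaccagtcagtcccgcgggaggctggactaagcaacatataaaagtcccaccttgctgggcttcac
In ANKRD1 the TEAD core began 220 and 128 bases before the start and an AP-1 site 195 bases before it. CCN2 had 3 TEAD cores, at 169, 104 and 95 bases, and PRR9 had 1 AP-1 site at 137 bases and no TEAD core in this window. Such a match is a string of letters and does not show binding.

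ANKRD1 (chr10:90912096-90921087, minus strand) averaged 6.84 UMIs per 10000 in cluster 1, whereas the other 13 clusters ran from 0.156 in cluster 9 through a median of 0.837 to 5.28 in cluster 8. Cluster 1 was thus above every other cluster, with clusters 8 and 11 (5.09) close behind and the remaining clusters far lower. The log2 difference from the mean of the other clusters was 2.11 (0.1 added to both), a 4.31-fold higher level, and the largest positive difference of all 12139 genes tested, those with a mean of at least 0.05 UMIs per 10000 over the clusters.

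KRT8 (chr12:52897187-52949954, minus strand) averaged 10.9 UMIs per 10000 against 2.56 to 9.18 in the others, with a median of 4.33. Its partner KRT18 (chr12:52948871-52952906, plus strand) averaged 22.5, against 4.53 to 24.4 with a median of 8.28. The 2 genes lie side by side and their annotated 5′ ends overlap on opposite strands. Both have many processed pseudogenes, which makes their counts less certain. On the log2 scale KRT8 was 1.19 and KRT18 1.03 above the mean of the others. High KRT18 was shared with clusters 10, 12 and 13, while for KRT8 the nearest cluster, cluster 12, stayed below cluster 1.

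ANXA1 (chr9:73151865-73170393), a calcium-dependent phospholipid-binding protein, averaged 5.77 UMIs per 10000, against 1.07 to 6.19 with a median of 2.61, and its difference was 1.09. SLC2A3 (chr12:7919230-8019007), the high-affinity glucose transporter GLUT3, averaged 12.6, against 3.73 to 17.8 with a median of 6.11, and its difference of 0.74 was the only marker difference under 2-fold. Reads of SLC2A3 can be confused with those of its near-identical neighbour SLC2A14, which averaged 0.466 in cluster 1 and differed by 0.35. SOX17, the factor switched on in the experiment, averaged 0.291 in cluster 1, ranking 11th of 14, against 0.0772 in cluster 10 and 21.0 in cluster 0. The cluster was therefore at the low end for SOX17 transcripts at day 8, beside clusters 2 (0.292), 8 (0.325) and 4 (0.329), with clusters 9, 10 and 12 lower still.

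**Figure D1:**
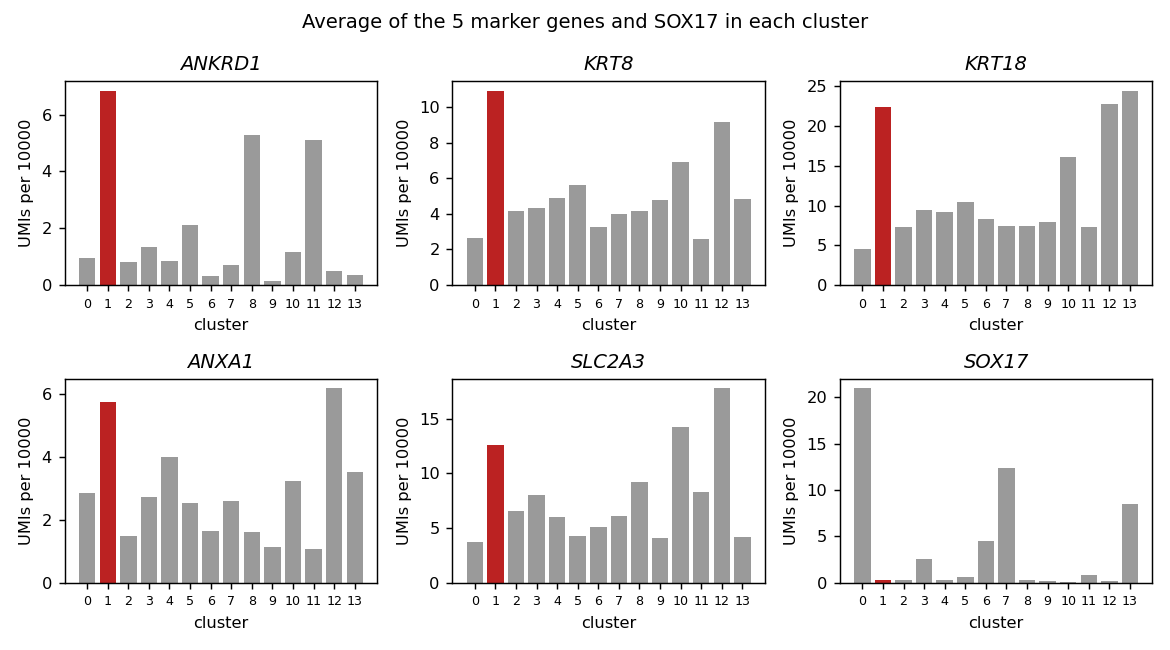
Average UMIs per 10000 (y axis, from 0) of ANKRD1, KRT8, KRT18, ANXA1, SLC2A3 and SOX17 in each of the 14 clusters (x axis); cluster 1 is red and the bars have no error, since each is an average over pooled libraries. ANKRD1 (6.84) and KRT8 (10.9) peak in cluster 1, the other 3 markers are matched or exceeded in clusters 10, 12 or 13, and SOX17 (0.291) is near the bottom.

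By the number of raised genes, cluster 1 was the least set apart of the 14. With 0.1 added to both levels, 12 of the 12139 genes (0.0989%) were 2-fold or more above the mean of the other clusters. By the same measure, 47 (0.387%) were 2-fold or more below it. The added 0.1 shrinks ratios at low levels, so S100A6, at 0.0119 against 0.118, was not counted as lower. Elsewhere the number of higher genes ran from 18 to 373 and of lower genes from 21 to 2897. Only 200 genes (1.65%) had their highest average in cluster 1, the fewest of any cluster (362 to 2440 elsewhere), and 43 (0.354%) had their lowest. The median difference over all genes was -0.01, with 48.0% above 0. The shares of 48.0% above 0 and 0.0989% past 2-fold are the background for the counts in the gene lists below. The deposited marker table held 122 genes for cluster 1 and 188 to 952 for each of the others.

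**Figure D2:**
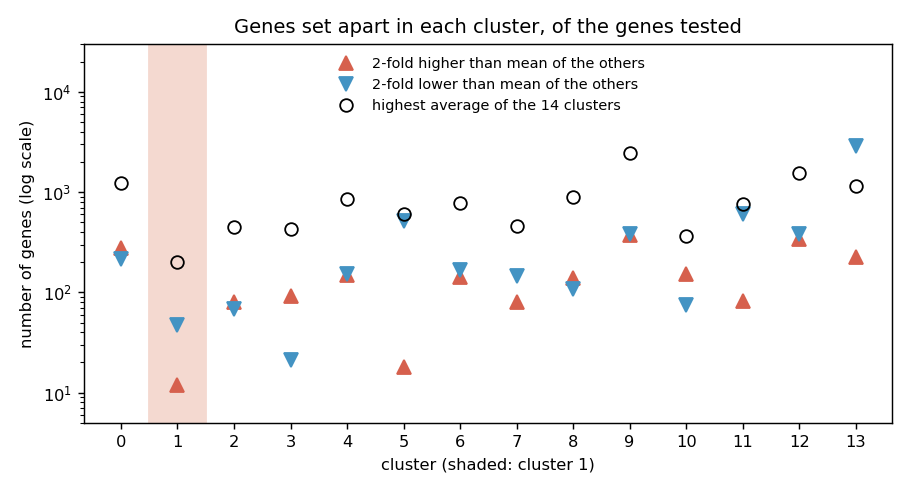
Number of genes (y axis, log scale) in each cluster (x axis) that were at least 2-fold higher (triangles up) or lower (triangles down) than the mean of the other clusters, or had their highest average there (circles), of 12139 genes. Cluster 1 (shaded) has the fewest higher genes (12) and the fewest peaks (200).

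Among the 12 genes more than 2-fold higher were ANKRD1, KRT8, COL11A1, GZMB, PMP22, TPM1, TAGLN, ANXA1, PRR9, KRT18 and MT1E. Besides ANKRD1 and KRT8, cluster 1 had the highest average for PMP22, TPM1 and MT1E. TPM1, the tropomyosin that stabilises actin filaments (chr15:63042620-63071915), averaged 3.79 UMIs per 10000 against 0.802 to 3.02 (median 1.78) in the others, and cluster 4 was the nearest. TAGLN, the actin cross-linker transgelin (chr11:117199370-117207464), averaged 3.15 against 0.189 to 3.54 (median 1.17), with cluster 10 above cluster 1.

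PMP22, a small membrane protein of junctions and myelin, averaged 1.36 in cluster 1, barely above clusters 8 (1.30) and 11 (1.28). MT1E, a metal-binding metallothionein whose reads can be shared with its close paralogues, averaged 3.27 with cluster 2 next at 2.96. COL11A1, a fibrillar collagen chain, averaged 0.879 and was matched by clusters 4 (0.925) and 7 (0.871). GZMB, the granzyme B protease best known from cytotoxic lymphocytes, averaged 2.12, below cluster 12 at 3.12 and cluster 13 at 2.42. The last gene above the 2-fold line was MT1E with a difference of 1.02 and the next below it was BMP4, a BMP ligand, with 0.98.

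The next genes in order were BMP4, FABP3, GLIS3, AHNAK, PLAU, PRR16, PRSS23 and AC064875.1, all between 0.89 and 0.98 on the log2 scale. FABP3, a fatty acid-binding protein, averaged 0.815 in cluster 1 but 1.81 in cluster 12. PLAU, the urokinase plasminogen activator, averaged 0.975 against 0.129 to 1.12, with cluster 4 the highest. AHNAK, a very large scaffold protein under the plasma membrane, averaged 1.07 and was highest in cluster 1. At a lower line of 1.5-fold, set after the values were seen, 110 genes (0.906%) were higher and 187 (1.54%) lower. Of those 110, 33 peaked in cluster 1 itself, 23 peaked in cluster 4, 17 in cluster 12 and 13 in cluster 8, so most of the cluster's raised genes reached a higher level in some other cluster. In cluster 3 every one of the 110 was lower than in cluster 1, as were 109 in clusters 5 and 6 and 108 in cluster 0. The 110 were chosen for being high in cluster 1, so such counts are largely set by that choice.

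**Figure D3:**
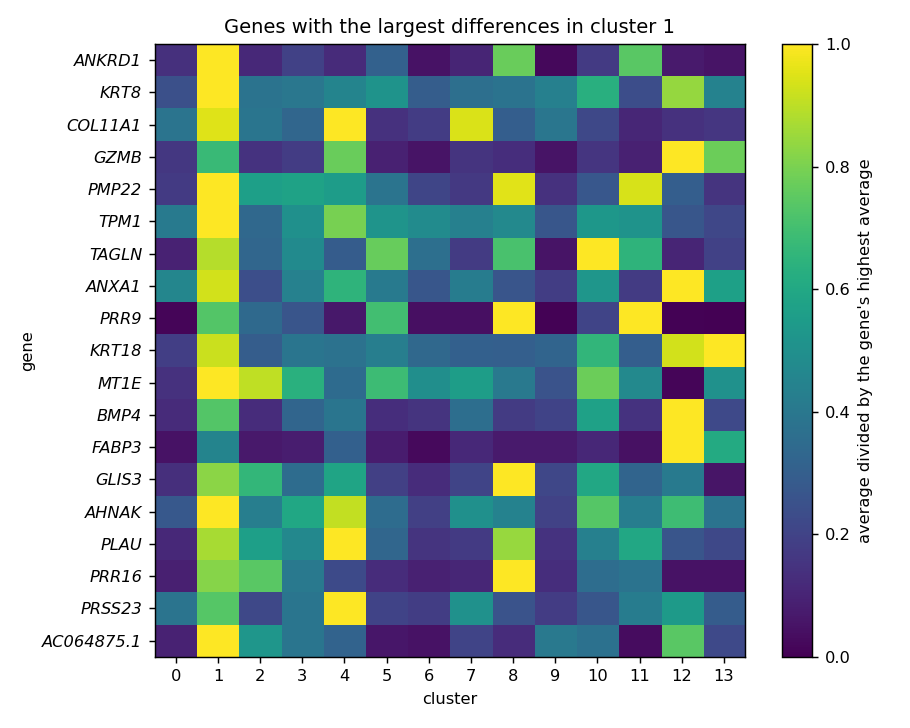
Average of genes with the largest differences in cluster 1 (rows) in each of the 14 clusters (columns), divided by the gene's own highest average, so that 1 (yellow) is the cluster where it peaks. Genes that do not peak in column 1 peak in columns 4, 8, 10, 12 or 13.

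Measured against the runner-up, the genes with the clearest peak in cluster 1 were ANKRD1 (log2 ratio to the next cluster 0.37), TRIB3 (0.33), TPM1 (0.32), SLC7A5 (0.28), CACNA1B (0.28), AC064875.1 (0.26), SBDS (0.26), KRT8 (0.25), COTL1 (0.24) and NES (0.21). SLC7A5, the LAT1 amino acid transporter, averaged 1.20 against 0.480 to 0.966 in the others. TRIB3, a pseudokinase induced by amino acid and ER stress, averaged 0.278 against 0.0653 to 0.200. COTL1, an actin-binding protein, averaged 2.59 against 1.31 to 2.18. Even these ratios were small, since ANKRD1 itself was only 0.37 above cluster 8 on the log2 scale.

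The 5 genes whose log2 averages followed ANKRD1 most closely over the 14 clusters were PRR9 (Pearson r = 0.90), AC244153.1 (0.87), PMP22 (0.85), CDC42EP1 (0.84) and TM4SF18 (0.84). They were chosen as the highest of all genes tested, and the 14 points share libraries, so r is a description. PRR9, a proline-rich protein, averaged 0.535 in cluster 1 and was higher in clusters 8 (0.729) and 11 (0.726), where ANKRD1 was also high. TM4SF18 averaged 0.165 in cluster 1, with 0.267 in cluster 8 and 0.224 in cluster 11. CDC42EP1, an effector of the CDC42 GTPase that shapes actin, averaged 0.166, almost equal to 0.168 in cluster 11.

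Among the targets of YAP and TAZ, 21 of 23 listed genes reached the minimum mean. Of these, 19 were above the mean of the other clusters, against 48.0% of all genes, but only ANKRD1 passed 2-fold, and the median difference was 0.30 (0.11 to 0.43 over the alternative settings). CCN1, a matricellular YAP target, averaged 0.924 in cluster 1 and was highest there, just above cluster 0 at 0.898. CRIM1, a BMP-binding membrane protein, averaged 1.12 (difference 0.71), NUAK2, a kinase, 0.256 (0.68), and TGFB2, a TGF-beta ligand, 0.303 (0.57). CCN2 averaged 0.374, against 0.102 to 0.429 in the others, with clusters 8 and 10 above it. Summed over the list the level was 18.6 UMIs per 10000, the highest of the clusters (4.36 to 16.2 elsewhere), although ANKRD1 alone contributed 6.84 of it.

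The Hippo pathway's own components did not stand apart to the same degree. All 19 passed the minimum, 12 were above the others' mean, against 48.0% of all genes, and the median was 0.05. None passed 2-fold, against 0.0989% of all genes. YAP1 averaged 0.763 in cluster 1 and 0.993 in cluster 2, WWTR1, which encodes TAZ, averaged 0.689 and 0.792 in the same clusters, and TEAD1 averaged 1.21 against 1.82 in cluster 0. The transcripts of the effectors were thus in the middle of the range while those of several targets were near the top.

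Actin cytoskeleton genes were shifted together. All 34 listed genes passed the minimum and all 34 were above the mean of the others, against 48.0% of all genes. The count of actin genes above it ran from 31 to 34 over the alternative settings that kept all of them. The median difference was 0.33 (0.17 to 0.35). Of the list, 2 genes, TPM1 and TAGLN, passed 2-fold, against 0.0989% of all genes. Another count, of genes with their highest average in cluster 1, was 7, against 1.65% of all genes. LMNA, the nuclear lamin A/C whose level follows tissue stiffness, averaged 2.35 against 0.659 to 2.14 and was highest in cluster 1. MYH9, the non-muscle myosin heavy chain, averaged 1.32, below cluster 4 at 1.55. ACTG1, cytoplasmic gamma-actin, averaged 26.3 against at most 23.3 elsewhere, whereas ACTB, beta-actin, averaged 19.6, below clusters 5 (23.2) and 11 (22.0). Summed over the list cluster 1 reached 202 UMIs per 10000 and cluster 11 reached 227.

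Of 14 keratins only 4 reached the minimum mean. KRT19, a simple epithelial keratin, averaged 2.36 against 0.275 to 4.47 (difference 0.47), and KRT10, a keratin of stratified epithelia, averaged 3.17 against a median of 3.45 (-0.28). KRT7, KRT5, KRT14 and KRT17 averaged at most 0.0122 UMIs per 10000 in cluster 1. Past 2-fold, the keratin part of the profile was thus the KRT8 and KRT18 pair. KRT19 was raised less against the mean, though it was 0.656 in cluster 2, the cluster most like cluster 1. The 10 keratins under the minimum mean were too low to be compared. Epithelial junction genes were near the background: of 17 that passed, 8 were above the others' mean, against 48.0% of all genes. None passed 2-fold, against 0.0989% of all genes. The median was -0.06, with the sign depending on the setting (-0.11 to 0.17). DSP, the desmosomal plaque protein, averaged 3.24 (0.68), whereas EPCAM, an epithelial adhesion molecule also high in EC cells, averaged 0.117 (-0.79), and CDH1, E-cadherin, was at 0.0119 and under the minimum mean.

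Annexins and S100 genes were mostly above the mean of the other clusters. All 8 annexins that passed, of 12 listed, were above the others' mean, against 48.0% of all genes, with a median of 0.25. ANXA2 averaged 6.14, second to cluster 4 at 7.03, and ANXA5 averaged 5.77, below cluster 12 at 8.02. Of 9 S100 genes that passed, 8 were above 0 (median 0.32). S100A10, the subunit that binds ANXA2, averaged 15.5 and was highest in cluster 1 by a narrow margin, with 15.3 in cluster 11. S100A6 was the exception, with 0.0119 in cluster 1 against 1.28 in cluster 12. Integrin and focal adhesion genes had a median of 0.12 over 19 genes with none past 2-fold, against 0.0989% of all genes. CAVIN1, a caveola component, was the furthest up at 1.17 UMIs per 10000 (0.62).

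Mesenchymal genes were mostly above the mean of the other clusters, but with a small median. Of 13 that passed, 10 were above 0, against 48.0% of all genes, and the median was 0.08. Their summed level was 42.0, against 16.8 to 59.9 elsewhere, below cluster 4 only, and VIM made up most of it. VIM, the mesenchymal intermediate filament vimentin, averaged 28.4 against 10.5 to 40.9 and was second to cluster 4, so the simple epithelial keratins and vimentin were both high in the same cluster average. FN1, fibronectin, averaged 1.07 against 3.61 in cluster 4. The basement membrane list had a median of -0.01 over 13 genes, with COL4A6 (-0.53) and SPARC (-0.45) lowest.

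Besides SLC2A3, glycolysis genes differed little. Of 24 genes 19 were above 0, against 48.0% of all genes, and the median was 0.13. None passed 2-fold, against 0.0989% of all genes. PFKP, a phosphofructokinase, averaged 0.516 (0.57), PKM, pyruvate kinase, 6.59 (0.43) and SLC2A1, the transporter GLUT1, 2.49 (0.40). Hypoxia targets had a median of 0.07 over 19 genes, with DDIT4 (0.61) and VEGFA (0.39) furthest up. The glucose transporter was not accompanied by a shift of similar size in either list.

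Stress and early response genes showed small positive medians. Heat shock and ER stress genes had 0.20 over 17 genes, of which TRIB3, HSPA5 and HSPA1B peaked in cluster 1. HSPA5, the ER chaperone BiP, averaged 3.27 against 0.971 to 2.86. AP-1 and immediate early genes had 0.16 over 18 genes, with MYC, the growth-promoting transcription factor, highest in cluster 1 at 0.425 (0.83) and EGR1 lower at 0.625 (-0.48). All 5 metallothioneins that passed were above 0 (median 0.24), and MT2A was 0.76 above the others' mean, with its maximum of 32.0 in cluster 11. The NF-kB and cytokine list had a median of 0.13 over 8 genes, IL11 being the furthest up (0.66).

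Among the 15 genes with the largest negative differences were SOX17 (-3.38), MSGN1 (-2.03), HOXA-AS3 (-1.80), AREG (-1.79), HES6 (-1.76), AC087379.1 (-1.67), SOX5 (-1.65), POMC (-1.63), NENF (-1.59), SORBS2 (-1.58), ZNF385B (-1.37), AC064802.1 (-1.33), MGLL (-1.33) and LINC02476 (-1.31). MSGN1, a presomitic mesoderm factor, averaged 0.0723 in cluster 1 and 4.58 in cluster 9. HES6, a regulator of differentiation, averaged 0.563 and 12.6 in the same clusters. SOX5, a SOX-family factor, averaged 2.37 against 37.2 in cluster 0, and AREG, an EGF receptor ligand, 0.0224 against 2.75 there.

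These genes were low relative to a mean raised by a few clusters, although many other clusters were also above cluster 1. The number of the 47 genes 2-fold lower that were higher than in cluster 1 ran from 20 in cluster 12 to 45 in cluster 3. Of the 47 genes 2-fold lower, cluster 0 was the peak for 17, cluster 6 for 13, cluster 9 for 7 and cluster 10 for 5, and only 1, the histone gene HIST1H1B, was lowest in cluster 1. Without clusters 0, 6 and 9, a choice made after seeing the data, 25 genes were 2-fold lower, 20 of them from the 47. Set against the median of the other clusters, only 2 genes remained 2-fold lower and 45 were higher, 11 of them from the 12 above. SOX17 itself was 0.614 at the median of the other clusters.

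EC and pluripotency genes were among the low ones. Of 9 that passed, 8 were below the others' mean, and the median of -0.38 stayed negative over the alternative settings (-0.56 to -0.13). POU5F1, the core pluripotency factor OCT4, averaged 0.405 against 0.0265 to 3.96 (median 0.542), and NANOG averaged 0.0544 against 0.00721 to 1.06 (median 0.0933). Both peaked in cluster 6, and in cluster 1 both were below the median of the other clusters. The other members differed by -0.62 for GDF3, -0.39 for SOX2, -0.38 for DPPA4, -0.37 for DNMT3B, -0.33 for TDGF1 and -0.21 for L1TD1, and LIN28A was at 0.06. PRDM14 was under the minimum mean, at 0.0054 in cluster 1.

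YST genes were spread in both directions, with ANKRD1 at the top of the list and SOX17 at its bottom. Of 14 listed, 10 passed the minimum, and 4 of these were above the others' mean. ANKRD1 (2.11) and BMP2 (0.88), a BMP ligand, were the furthest up, GATA4 (0.25) and GATA6 (0.06), the endoderm factors, were near the others' mean, and CST1 (-0.17), DUSP4 (-0.20), CXCR4 (-0.35), APOA1 (-1.01), GPC3 (-1.17) and SOX17 were below it. FOXA2, an endoderm factor, and AFP, APOA2 and APOB, secreted products of endoderm, averaged 0.0003, 0.0137, 0.0015 and 0.0004 UMIs per 10000 and were under the minimum mean. GPC3, a glypican of YST and fetal liver, averaged 0.770 against 9.78 in cluster 9. The median was -0.18 and its sign changed with the setting (-0.67 to 0.06).

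Of 30 secreted YST factors that passed, 12 were above 0 and the median was -0.03. NQO1, a quinone reductase on that list, averaged 1.25 (0.69), and FGF17, a mesendoderm FGF, averaged 0.131 against 1.54 in cluster 9 (-1.07). Definitive endoderm genes had a median of -0.21, which became 0.37 against the median of the other clusters, and CER1 and EOMES averaged 0.514 and 0.354 against 2.55 and 1.54 in cluster 8. Mesoderm genes had a median of -0.47 over 5 genes, which became -0.10 against the median of the other clusters. TBXT, the mesoderm factor brachyury, was at 0.0575 against 0.541 in cluster 9.

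Trophoblast and amnion and endothelial and blood markers were within the range of the other clusters, while the neural sum was near its top. Of 19 measured trophoblast and amnion genes 4 passed the minimum, and the summed level was 0.522 UMIs per 10000, within 0.309 to 0.922 in the other clusters. Of 13 endothelial and blood genes 5 passed, with a sum of 1.05 (0.440 to 2.07 elsewhere), and of 14 neural genes 6 passed, with a sum of 4.40 (2.07 to 4.96). The neural sum, exceeded in cluster 4 alone, was carried mainly by NES, the intermediate filament nestin, which averaged 1.63 and was highest in cluster 1, and TUBB3 at 1.91, whereas OTX2 was at 0.0245.

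HOX genes were low: of 13 that passed 12 were below the others' mean, with a median of -0.24 that came close to 0 (0.0049) under the most favourable setting. HOXC6 (-0.60) and HOXB7 (-0.59) were among the lowest.

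By list medians, signalling readouts of the added factors differed little from the mean of the other clusters, while single genes differed more. WNT targets had a median of -0.22 over 17 genes, turning to 0.08 against the median of the other clusters, with APCDD1, a WNT inhibitor, at 0.338 (-0.71) and DKK4, another WNT inhibitor, at 2.59 (0.55). NODAL and TGF-beta targets were split. NODAL itself, the endogenous ligand of the receptors that Activin uses, averaged 0.0353 against 0.734 in cluster 6 (-1.13), and the median was -0.08 over 16 genes. FGF and MAPK feedback genes had -0.02 over 15 genes, with ETV1 (-0.61) the lowest. No BMP was among the added factors. BMP targets had a median of 0.15 over 12 genes, and the ligands BMP4 at 0.511 and BMP2 at 0.578 were their leading members.

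Cell cycle genes were below the mean of the other clusters but near the middle of their range. Summed over the list, G2/M genes reached 8.02 UMIs per 10000 in cluster 1, against a median of 9.82 and a maximum of 45.1 in cluster 3, and S-phase genes reached 9.05 against 4.31 to 20.3 elsewhere. None of the 15 G2/M genes was above the mean of the others, although 2 were above it against the median of the clusters, and the median was -0.48 (-0.75 to -0.14 over the settings). MKI67 averaged 0.310 against 2.32 in cluster 3, and TOP2A 0.670 against 4.83 there. Cluster 1 was not the lowest cluster for either gene. Of 20 S-phase genes 17 were below 0, with a median of -0.17. Of 19 p53 targets 14 were below 0 (median -0.21), and BAX, a pro-apoptotic protein, averaged 1.82 and was lowest of all clusters here. The factors the study names for cisplatin resistance had a median of -0.04 over 24 genes, from -0.47 for BIRC5, the inhibitor of apoptosis survivin, to 0.37 for HSPB1, a small heat shock protein.

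Lists that mark RNA quality were near 0 or slightly negative, with medians of -0.13 for 28 ribosomal protein genes, -0.17 for 13 genes of the mitochondrial genome, 0.04 for 7 nuclear retained RNAs and 0.07 for 15 housekeeping genes. Their part in the differences above was not tested. HLA and interferon genes had -0.19 over 14 genes, with HLA-C (-0.43) lowest, and the HMGA, LIN28 and IGF2BP group 0.06 over 7.

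The clusters most like cluster 1 by rank of averages over the 12139 genes were cluster 2 (Spearman rho = 0.970), cluster 3 (0.965) and cluster 4 (0.958), with 2429, 2370 and 2182 cells. Against cluster 2, cluster 1 was higher by 2-fold or more for 66 genes (0.544%) and lower by as much for 67 (0.552%). ANKRD1 led with 6.84 against 0.796 (log2 ratio 2.95), and next was EMP1, an epithelial membrane protein, at 0.446 against 0.0273 (2.10). Lower in cluster 1 were FGF17 (0.131 against 0.772), the mesendoderm genes CER1 (0.514 against 2.11) and EOMES (0.354 against 1.38), and ODC1, the polyamine enzyme (5.48 against 17.6). Relative to cluster 2, then, cluster 1 had more ANKRD1 and ANXA1 (5.77 against 1.48) and less of the mesendoderm genes.

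Against cluster 3, 42 genes (0.346%) were higher and 136 (1.12%) lower. ANKRD1 again led (1.32 in cluster 3, log2 ratio 2.28), followed by FABP3 (0.815 against 0.142) and GZMB (2.12 against 0.559). SOX17 (0.291 against 2.52) and the mitotic genes ASPM (0.338 against 2.79), TOP2A (0.670 against 4.83) and UBE2C (1.18 against 7.78) were lower in cluster 1, and 8 of the 10 genes furthest down against cluster 3 were mitotic.

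Against cluster 4, 84 genes (0.692%) were higher and 96 (0.791%) lower. The WNT inhibitor DKK4 averaged 2.59 against 0.0465 (log2 ratio 4.20), the retinoic acid-degrading enzyme CYP26A1 1.42 against 0.0447 (3.39), ANKRD1 6.84 against 0.837 (2.89), and the organiser factor LHX1 1.29 against 0.141 (2.52). IGFBP5, an IGF-binding protein, averaged 0.231 against 2.96 (-3.21), EMP1 0.446 against 3.88 (-2.87), and HMGA2, a chromatin protein, 0.951 against 5.85 (-2.50). Clusters 1 and 4 shared high TPM1 and ANXA2 but differed in ANKRD1 and in the mesendoderm genes MIXL1 (0.695 against 0.0728) and CER1 (0.514 against 0.0187).

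For 122 genes of cluster 1 the share of cells with at least 1 UMI was deposited. ANKRD1 was found in 63.0% of cluster 1 cells (95% exact interval 61.2 to 64.8%) and in 32.2% of the 18062 other cells, the largest gap among those genes at 30.8 percentage points. Averaged over the cells that had it, ANKRD1 stood at 10.9 UMIs per 10000 in cluster 1, 4.17 in all other cells, 10.3 in cluster 8 and 5.43 in cluster 11. In cluster 11, 93.9% of cells had a UMI of ANKRD1. A share of cells with a UMI moves with the depth per cell and with free RNA, neither of which was analysed here, so these values do not separate the number of expressing cells from the amount in each.

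The keratins were near the ceiling of detection in both groups, so their shares could hardly differ. KRT8 was found in 94.7% of cluster 1 cells (93.8 to 95.5%) against 93.5% of others, and KRT18 in 95.9% against 95.4%. Over the cells with a UMI, KRT8 averaged 11.5 in cluster 1 against 4.56 in the others, and KRT18 23.4 against 8.82. SLC2A3 was found in fewer cluster 1 cells than other cells (88.2% against 90.6%), yet averaged 14.3 against 7.03 in those that had it. ANXA1 was found in 89.1% against 78.1%, and TAGLN in 76.0% against 54.4%.

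Over the 122 genes the median gap was 4.40 points, 32 gaps exceeded 10 points, and 25 genes had a smaller share of cells in cluster 1 although they were listed as higher there. Of the 19 genes found in at least 90% of other cells, 13 had a lower share in cluster 1, among them VIM (97.2% against 98.2%) and S100A10 (96.3% against 96.5%). The table holds only genes listed as higher, and UMIs per cell were not analysed here, so the part of depth in these shares was not tested.

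**Figure D4:**
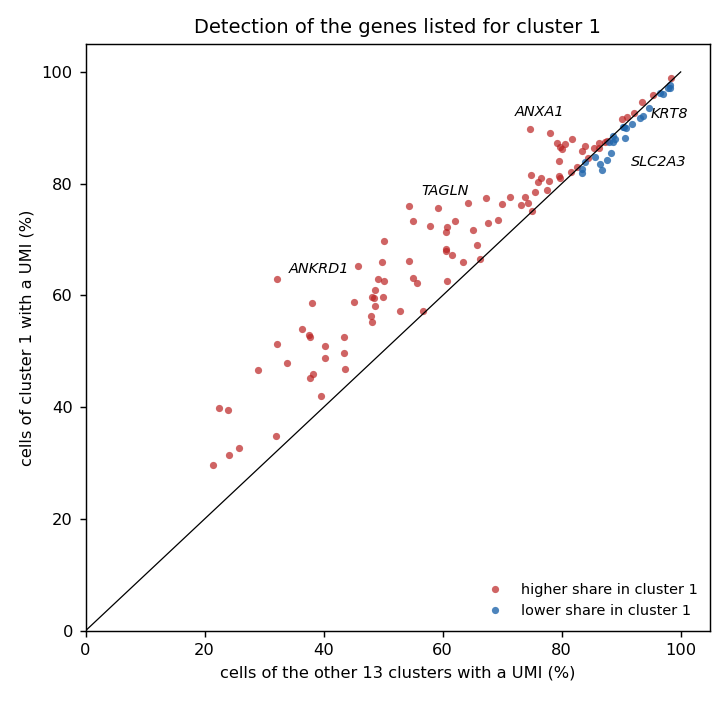
Share of cluster 1 cells (y axis, %) against share of all other cells (x axis, %) with at least 1 UMI of each of the 122 genes the authors listed for cluster 1; the line marks equal shares. ANKRD1 lies furthest above the line (63.0% against 32.2%), KRT8 lies near it, and the 25 blue genes, SLC2A3 among them, lie below it.

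RefSeq promoter windows, 250 bases before to 50 after a start, were at hand for 8 of the 12 genes more than 2-fold higher (10 windows), and not for TAGLN, KRT18 and MT1E among others. The TEAD core on either strand was in 2 of the 10, from ANKRD1 and KRT8, against 14.03% of all 35116 windows. Holding 2 or more cores, as ANKRD1 does, was a feature of 1.37% of all windows. An AP-1 site, which does not overlap the TEAD cores shown, was in 3 of the 10, from ANKRD1, GZMB and PRR9, against 7.71% of all windows. Windows of the listed YAP targets held a TEAD core in 10 of 20, and those of the actin cytoskeleton list in 10 of 52. The CArG box, the site of serum response factor and added after the values were seen, was in 0 of the 10 windows of the higher genes and in 5 of the 52 of the actin list, against 1.29% of all windows. These shares describe letters in a short window and say nothing of which factor acted.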

How the data were processed

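The titles of the 3 samples gave their cell lines. Per the submitters' processing notes, reads were processed with Cell Ranger 7.0 (GRCh38) and Seurat 4.1.1. The study's methods state aggregation with normalization for sequencing depth, removal of poor cells and doublets, SCTransform and graph-based clustering. The annotation release and whether detection fractions come from raw or SCTransform-corrected UMIs are not stated in the sources used here. The authors deposited counts of cells per cluster and library code, averages per cluster for 32727 genes whose columns each sum to 10000, and a marker table, of which only the deposited fraction of cells with a UMI was used. Its fold changes and p-values, from the authors' comparison of each cluster with all other cells, were not used. The 3 library codes matched no sample label, so no value per cell line was computed.

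For each gene with a mean of at least 0.05 over the 14 clusters (12139 genes), log2((cluster 1 + 0.1)/(unweighted mean of the other 13 + 0.1)) was computed with Python 3.11.15 and pandas 2.3.3, and a difference of at least 1 or at most -1 counted as 2-fold. Intervals are exact Clopper-Pearson (95%, scipy 1.17.1) and cover counting error only. Averages over detecting cells are an average divided by its fraction. The method was also run on simulated averages. That run does not show how 2-fold calls behave in real averages near the minimum mean of 0.05. Depth per library was not analysed here. Named genes were the 5 markers, SOX17, all EC and YST genes, the 20 largest positive and 15 largest negative differences, the 10 highest relative to the runner-up cluster, up to 4 leading members of each of 39 lists and the 5 genes most like ANKRD1. Other genes named were chosen after their values were seen. Some genes that this rule names are not reported here. The cluster, its markers and the lists were chosen with earlier results of these data known. Gene positions are from GENCODE 44 (GRCh38). Alternatives were another pseudocount, minimum mean, scaling, weighting or reference.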

Additional observations from a re-analysis of the deposited data

How the results depend on the processing

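The number of genes at least 2-fold higher in cluster 1 was 12 and became 36 with a pseudocount of 0.01, 2 with a pseudocount of 1, 5 after rescaling the columns by the median of ratios, 45 against the median of the other clusters and, chosen after seeing the data, 110 at 1.5-fold and 4 without clusters 0, 6 and 9. The number 2-fold lower was 47 and became 185 with a pseudocount of 0.01, 4 with a pseudocount of 1, 22 at a minimum mean of 0.5, 2 against the median and 72 without clusters 5, 11, 12 and 13. With the choices made after seeing the data it became 187 at 1.5-fold and 25 without clusters 0, 6 and 9. Genes with their highest average in cluster 1 numbered 200, and 838 with no minimum, 89 at a minimum of 0.5, 129 after rescaling and 428 without clusters 5, 11, 12 and 13. The changes with the minimum mean follow from testing more or fewer genes, and the cause of the others was not tested. Of the 12 higher genes, 10 or more remained under 6 of the 8 planned settings, and 2 and 5 under a pseudocount of 1 and the rescaling.

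ANKRD1 stayed between 1.64 and 2.89, KRT8 between 1.06 and 1.34, KRT18 between 0.84 and 1.43, ANXA1 between 0.89 and 1.25 and SLC2A3 between 0.56 and 1.03. The median of the keratin list turned to -0.0039 with no minimum mean, which adds 10 nearly silent keratins. With a minimum of 0.5 no trophoblast, endothelial or blood gene was left to give a median. Pearson correlation named the same 3 clusters as most like cluster 1. No paired analysis was possible because each line had a single library and the averages pool the lines. With averages only, neither the spread between libraries nor the depth per cell can be given, and the values of clusters 12 and 13 rest on 180 and 42 cells.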

Other observations

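Gene groups chosen after the values were seen, and therefore without support from a test, add to the profile of cluster 1. Of 23 cholesterol synthesis genes and SREBP2 targets that passed the minimum mean, 20 were above the mean of the other clusters and 3, HMGCS1 and IDI1 among them, had their highest average in cluster 1. HMGCS1, which makes the precursor of mevalonate, averaged 1.45 UMIs per 10000 against 0.208 to 1.38 elsewhere. The median difference was 0.22 and none passed 2-fold, against 0.0989% of all genes. Over all genes tested, 48.0% were above the mean of the other clusters and 1.65% had their highest average in cluster 1.

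Of 19 targets of NRF2, the regulator of the antioxidant response, 16 were above the others' mean (median 0.12), against 48.0% of all genes. SQSTM1, an autophagy receptor, averaged 5.07 and was highest in cluster 1, HMOX1, heme oxygenase, averaged 0.588 (difference 0.81) and TXNRD1, thioredoxin reductase, 3.22 (0.55). Of 16 amino acid response genes 14 were above 0 (median 0.14), led by SLC7A5 (0.75) and TRIB3 (0.62), whereas ASNS and CHAC1, established members of the same response, were at 0.0139 and 0.0134 and under the minimum mean. Of 10 tubulins 6 were above 0, with a median of 0.11.

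Most other lymphocyte genes were at low levels beside GZMB. Of 15 T and NK cell markers 2 passed the minimum mean, CD3D (0.057) and NCAM1 (0.236), and both were slightly below the mean of the other clusters. KLRD1 averaged 0.0390 in cluster 1 against a mean of 0.0273 in the others, PRF1 0.0202 against 0.0132, GNLY 0.00184 against 0.000693, CD2 0.000361 against 0.000131 and CD3E 0.000394 against 0.000189, all higher in cluster 1 but under the minimum mean. The remaining members, also under the minimum mean, were lower in cluster 1. PTPRC averaged 0.000658 against 0.000714, NKG7 0.00441 against 0.00688, CD3G 0.0116 against 0.0210 and TRAC 0.0191 against 0.0339. CD247 averaged 0.00401 against 0.00788, CD8A 0.00820 against 0.00878, GZMA 0.00195 against 0.00227 and GZMK 0.000157 against 0.000427. The list's sum was 0.405 UMIs per 10000 against 0.215 to 0.945 in the other clusters.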
